A study of Mus musculus with 32 samples.

Results

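Transcript levels of 8 genes, out of the 37441 entries kept from the deposited count table, were followed across mouse oocytes of 3 kinds of female at 2 stages. The genes were Fmn2, Spire1, Spire2, Rab11a, Myo5b, Actr2, Actr3 and Cfl1. They were taken by symbol from the table's gene identifiers, with no cut on measured values. The set was, however, chosen with earlier results of these data known. All 8 were found, and all 8 passed the filter on low counts that left 19003 genes for testing.

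The products of these genes build and move the actin network that carries the meiotic spindle from the centre of the oocyte to its cortex, which makes the divisions unequal and the polar bodies small. Formin-2 and the Spire proteins nucleate long filaments in the cytoplasm from the surface of vesicles marked by the GTPase Rab11a, and the motor myosin Vb moves those vesicles along the filaments. At the cortex, the Arp2/3 complex builds a branched network whose flow helps to hold the second meiotic spindle in place, and cofilin severs old filaments and returns monomers.

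The samples were RNA-seq libraries of germinal vesicle (GV) oocytes, which rest in the first meiotic prophase, and of metaphase II (MII) oocytes, which are mature eggs that await fertilization. The females were of the inbred strains B6 and D2 and of their B6xD2 F1 hybrid, obtained at 7 weeks of age and used at 8 to 12 weeks, and the labels name no mutation or transgene for any group. Of the 32 libraries, 5 were of GV and 6 of MII oocytes in B6, 5 and 5 in D2, and 6 and 5 in F1. Each library was made from the pooled oocytes of 1 mother, 9 to 20 per pool, so a value is the mean of a pool and says nothing of the spread between oocytes. GV oocytes were handled in the phosphodiesterase inhibitor IBMX, which holds the germinal vesicle intact, and all oocytes were freed of the zona pellucida in acid Tyrode's buffer. The RNA was amplified by single primer isothermal amplification (SPIA) before library preparation, a step shared by all groups.

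The genes lie on 6 chromosomes and differ in how safely their reads can be assigned. On GRCm38, Fmn2 spans chr1:174501825-174822729 on the plus strand and Actr3 spans chr1:125392905-125435727 on the minus strand. Spire1 and Myo5b both lie on chromosome 18, Spire2 on chromosome 8, Rab11a on chromosome 9, Actr2 on chromosome 11 and Cfl1 on chromosome 19. No 50-nt window of the longest transcripts of Fmn2, Spire1, Spire2 or Myo5b, the read length used, occurred in a transcript of another gene. For Actr3, 49.8% of windows were shared with the pseudogenes Gm8822 and Gm15899, and for Cfl1, 23% were shared with 5 other genes, among them the pseudogenes Gm6180, Gm44227 and Gm15660 and the gene Snx32, which overlaps Cfl1 on the opposite strand. Shares were 2.54% for Rab11a and 0.726% for Actr2. The strand and multi-mapping settings of the counting are not given in the sources used here, so the levels of Actr3 and Cfl1 carry that uncertainty, and reads of Cfl1 and Snx32 in their overlap cannot be told apart.

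The median library held 28.1 M reads in all, the smallest 18.7 M and the largest 39.7 M. Levels are counts-per-million (CPM) on library sizes scaled by the trimmed mean of M values. Batch 1 gave 3 libraries to each group and batch 2, run on a different HiSeq model, gave 2 or 3, and batch was a term in every main test. The 12 oocyte markers summed to between 8708 and 12501 CPM in GV libraries and between 7429 and 11067 CPM in MII libraries, and no library had any of the 12 at 0. The 25 granulosa and cumulus markers, genes of the follicle cells that surround the oocyte, summed to between 172 and 4099 CPM in GV libraries and between 109 and 214 CPM in MII libraries. Nr5a2, at a mean of 82.9 CPM, and Cyp19a1, at 31.1, made up most of the MII sum, and they averaged 110 and 30.8 CPM in GV. In 3 GV libraries, all of batch 2, the sum was low: it was 198 CPM in replicate 1 of B6, 172 in replicate 1 of F1 and 195 in replicate 2 of D2. The 16 stroma and blood markers summed to between 20.2 and 575 CPM in GV and between 34.9 and 79.2 CPM in MII. Pecam1, at a mean of 49.3 CPM, made up most of that MII sum, and it averaged 36.2 CPM in GV.

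The promoters of Fmn2 and Actr3 are printed because these genes, described further on, had lower transcript levels in D2 than in B6 at both stages. They are RefSeq sequence of GRCm38.p6, which comes from the B6 strain, so no D2 allele is shown. Each runs 5′ to 3′ on the strand of the gene, from 250 bases before to 50 bases after the start, at chr1:174501575-174501874 on the plus strand for Fmn2 and at chr1:125435678-125435977 on the minus strand for Actr3. Capitals mark the E-box CANNTG, the core bound by basic helix-loop-helix factors such as the oocyte factor FIGLA, and the element TAATTG, which reads CAATTA on the other strand, the core bound by the oocyte homeobox factor NOBOX.
Fmn2: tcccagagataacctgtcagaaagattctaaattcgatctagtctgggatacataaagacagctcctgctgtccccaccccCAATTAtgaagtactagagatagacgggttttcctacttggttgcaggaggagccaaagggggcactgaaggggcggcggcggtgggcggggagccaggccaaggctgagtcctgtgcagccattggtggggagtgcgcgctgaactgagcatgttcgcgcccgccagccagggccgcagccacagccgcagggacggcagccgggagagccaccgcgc
Actr3: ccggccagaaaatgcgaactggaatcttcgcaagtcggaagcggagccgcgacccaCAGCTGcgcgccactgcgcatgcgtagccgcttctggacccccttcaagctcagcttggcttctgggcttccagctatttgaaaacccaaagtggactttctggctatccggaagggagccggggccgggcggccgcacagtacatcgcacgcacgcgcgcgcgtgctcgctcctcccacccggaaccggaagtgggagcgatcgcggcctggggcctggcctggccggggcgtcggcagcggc
The Fmn2 window held 1 NOBOX element and no E-box, and the Actr3 window held 1 E-box and no NOBOX element. The marked matches do not overlap. Of 32851 RefSeq promoters of the same length, 72.3% held an E-box and 8% a NOBOX element. GC content was 61% for Fmn2 and 67.3% for Actr3, against a median of 52.7%, and the Actr3 window held 34 CpG dinucleotides, more than 92.3% of promoters. A promoter was found in the table for 6 of the 8 genes, and none of the 6 held the TATA box TATAAA on either strand.

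All of these genes but Spire2 were at 40.2 CPM or above in every library. As mean CPM per kb of exon over all 32 libraries, the order of levels was Cfl1 at 95.7, Myo5b at 81.6, Fmn2 at 77.5, Spire1 at 70.0, Actr3 at 60.5, Actr2 at 53.4, Rab11a at 31.2 and Spire2 at 4.19. Neighbours in this order from Cfl1 to Rab11a overlapped in their ranges over libraries, while Spire2 lay below all the others in every library, and the ratio of Fmn2 to Spire1 per kb ran from 0.612 to 1.73. Within the Spire pair, Spire1 per kb exceeded Spire2 in all 32 libraries, by 9.59 to 36.1 times with a median of 16.9. Within the Arp2/3 pair, both core subunits of the complex, Actr2 over Actr3 per kb ran from 0.611 to 1.52 with a median of 0.889. Counts per library ran from 5741 to 27368 reads for Fmn2, while Spire2 had as few as 112, so counting error weighs more on Spire2.

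**Figure D1:**
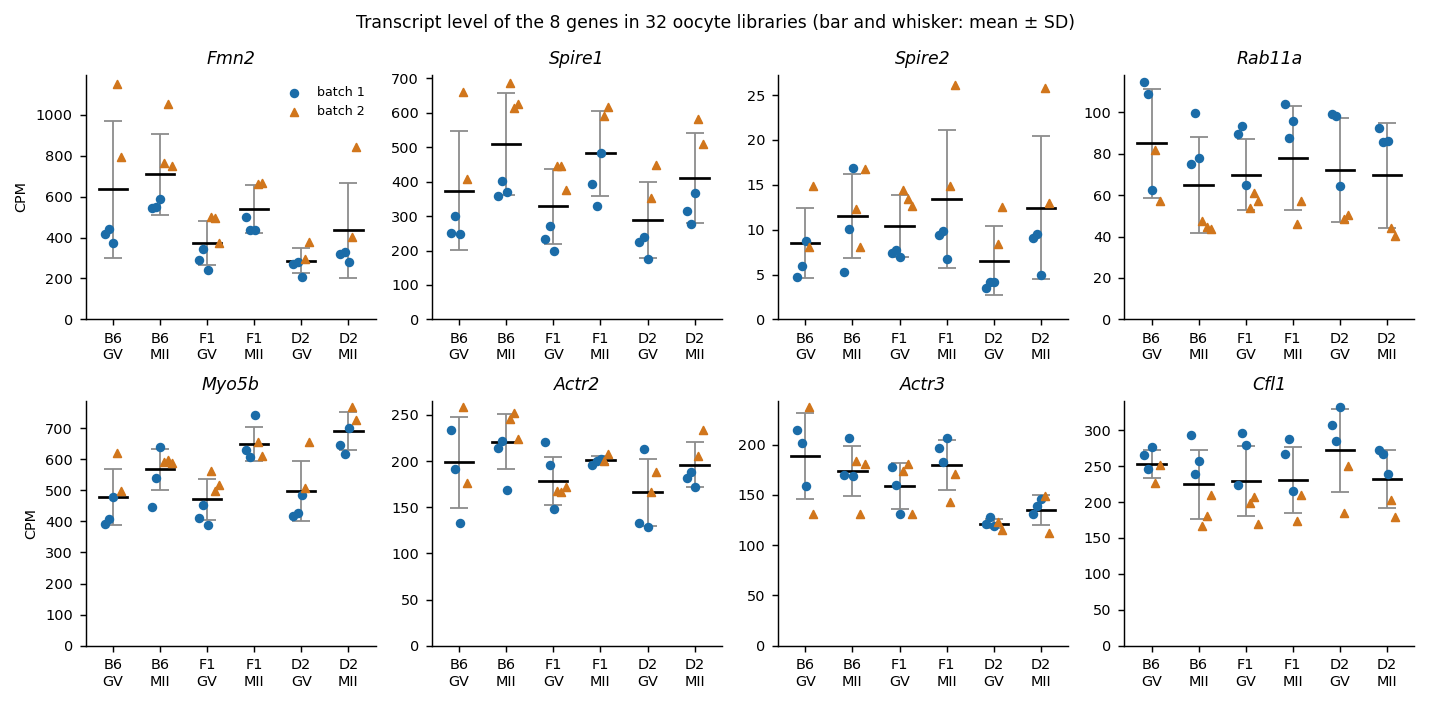
CPM of each of the 8 genes in each library, by strain and stage, with circles for batch 1, triangles for batch 2, a black bar for the group mean and whiskers for the SD. Fmn2 spans 209 to 1150 CPM and is highest in B6, Actr3 lies between 115 and 128 CPM in all 5 D2 GV libraries, and Rab11a is on average lower in batch 2 in each group.

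The first comparison asked how transcripts of the actin machinery differed between GV and MII oocytes, averaged over the 3 strains. The nucleator genes Fmn2, Spire1 and Spire2 and the motor gene Myo5b had higher scaled levels in MII, by 1.32 to 1.51 times. Actr2 rose by 1.14 times. Rab11a, Actr3 and Cfl1 did not pass the test. Thus 5 of 8 were called higher, that is with a Benjamini-Hochberg adjusted p under 0.05 over 19003 genes by edgeR's quasi-likelihood test, and none lower. With DESeq2, or with median-of-ratios scaling, 4 were called higher and 1, Cfl1, lower. Over all genes tested, 51.9% were called, 22.9% higher and 29% lower, so being called at all was common. The median log2 change was 0.30 for the 8 genes and -0.06 for all genes tested. CPM here is relative to the scaled library size and is not a share of all reads. The scaling factors had a median of 1.11 in GV libraries and 0.925 in MII libraries, so scaling raised MII levels relative to GV levels. Fewer cells of a type and less RNA per cell cannot be told apart in such data. The RNA content of an oocyte was not measured.

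Fmn2, which encodes the formin that starts the cytoplasmic filaments, ran from 209 to 440 CPM in the 9 GV libraries of batch 1, with a median of 290, and from 280 to 587 in the 9 MII libraries, with a median of 438. In batch 2 the 7 GV libraries ran from 296 to 1150 CPM, with a median of 496, and the 7 MII libraries from 402 to 1054, with a median of 752. The stages overlapped in both batches, with 4 of 9 MII libraries of batch 1 and none of batch 2 above every GV library. The log2 change was 0.44 ± 0.09 (SE), with an adjusted p of 0.000127.

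Spire1, whose product hands actin to formin-2 on vesicles, separated the stages more cleanly than Fmn2 did by this count. In batch 1 the GV libraries ran from 176 to 299 CPM and the MII libraries from 278 to 483, and 8 of 9 MII libraries lay above every GV library. In batch 2 the GV libraries ran from 353 to 660 CPM and the MII libraries from 510 to 686, and 1 of 7 did so, since the B6 GV library of low marker level held the highest GV value. The log2 change was 0.53 ± 0.07 (adjusted p = 8.23e-08). Spire2, its low-level paralogue, had medians of 7.88 CPM in GV and 9.96 in MII, with ranges of 3.54 to 14.9 and 4.99 to 26.1. Its log2 change of 0.60 ± 0.17 (adjusted p = 0.00304) had the widest error of the 8 genes.

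Of the vesicle pair, Myo5b was called and Rab11a was not. In batch 1, Myo5b ran from 387 to 484 CPM at GV and from 447 to 741 at MII. In batch 2 it ran from 496 to 656 CPM at GV and from 588 to 769 at MII. In batch 1, 8 of 9 MII libraries lay above every GV library, against 2 of 7 in batch 2. The log2 change of Myo5b was 0.40 ± 0.06 (adjusted p = 6.10e-07). Rab11a, the GTPase on the same vesicles, had a log2 change of -0.14 ± 0.09 (adjusted p = 0.191). In batch 1 its MII libraries, at 75.2 to 104 CPM, fell within the range of its GV libraries, 62.3 to 115. In batch 2 it ran from 48.5 to 82.0 CPM at GV, from 40.2 to 57.0 at MII, and 6 of 7 MII libraries lay below every GV library. Tested in batch 2 alone, Rab11a was called lower in MII, with a log2 change of -0.41, or 0.752-fold (adjusted p = 0.0131), while in batch 1 alone the estimate was 0.00.

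Of the Arp2/3 pair, Actr2 had medians of 174 CPM in GV and 204 in MII, with ranges of 128 to 259 and 168 to 252 that overlapped. Its log2 change was 0.19 ± 0.08 with an adjusted p of 0.0443, and the call was lost when any 1 of 20 of the 32 libraries was left out, with adjusted p between 0.00928 and 0.133. It stood in 5 of 14 other settings and was lost with median-of-ratios (adjusted p = 0.112) or upper quartile scaling (0.0578), the 1 CPM filter (0.172), DESeq2 (0.117), each batch alone, no batch term, the replicate block and the marker covariate. Actr3 had medians of 145 and 170 CPM and a log2 change of 0.07 ± 0.07 (adjusted p = 0.462). Cfl1, the gene of cofilin-1, had medians of 251 CPM in GV and 227 in MII and ranges of 169 to 333 and 166 to 294, and its log2 change of -0.14 ± 0.06 lay just outside the threshold (adjusted p = 0.059). Cfl1 was called lower with median-of-ratios scaling (adjusted p = 0.0154), DESeq2 (0.0122), the 1 CPM filter (0.00552) and the replicate block (0.0422). Leaving out 1 of 11 libraries in turn also brought it inside the threshold, with adjusted p over the 32 fits between 0.0195 and 0.117. Cfl1 varied least of the 8 genes once batch means were removed, with a root mean square deviation of 0.17 on the log2 scale against 0.50 for Fmn2.

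By strain, the change was called for 1 of the 8 genes in B6, 4 in D2 and 3 in F1, all higher in MII, where 26.7%, 28.7% and 32.9% of all genes were called. Spire1 was called in each strain, with log2 changes of 0.40 ± 0.12 in B6 (adjusted p = 0.0115), 0.53 ± 0.12 in D2 (0.00172) and 0.67 ± 0.12 in F1 (4.66e-05). Fmn2 was called in D2 at 0.53 ± 0.16 (adjusted p = 0.0138) and in F1 at 0.62 ± 0.16 (0.00233), and was 0.16 ± 0.16 in B6 (0.484). Myo5b was called in D2 at 0.48 ± 0.10 and in F1 at 0.50 ± 0.10, and was 0.23 ± 0.10 in B6 (adjusted p = 0.084). Spire2 was called in D2 alone, at 0.94 ± 0.30 (adjusted p = 0.017), with 0.45 ± 0.29 in B6 and 0.40 ± 0.28 in F1. These lists do not show that strains differed: the stage change itself, D2 against B6, was called for none of the 8 genes in edgeR's quasi-likelihood test, none had an unadjusted p under 0.05, and DESeq2 and limma-voom called none. Over all genes 0.105% were called there. For Fmn2 that difference was 0.37 with a 95% interval from -0.10 to 0.83, and for Spire1 it was 0.13 with an interval from -0.22 to 0.48. The B6 call of Spire1 was lost without B6 GV batch 2 replicate 2 (adjusted p = 0.0528). The D2 call of Fmn2 was lost without D2 GV batch 1 replicate 5 (0.0739), D2 GV batch 2 replicate 1 (0.122) or D2 MII batch 2 replicate 2 (0.113). The D2 call of Spire2 was lost without D2 GV batch 1 replicate 3 (0.0554), D2 GV batch 2 replicate 1 (0.0521) or D2 MII batch 2 replicate 1 (0.0836).

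**Figure D2:**
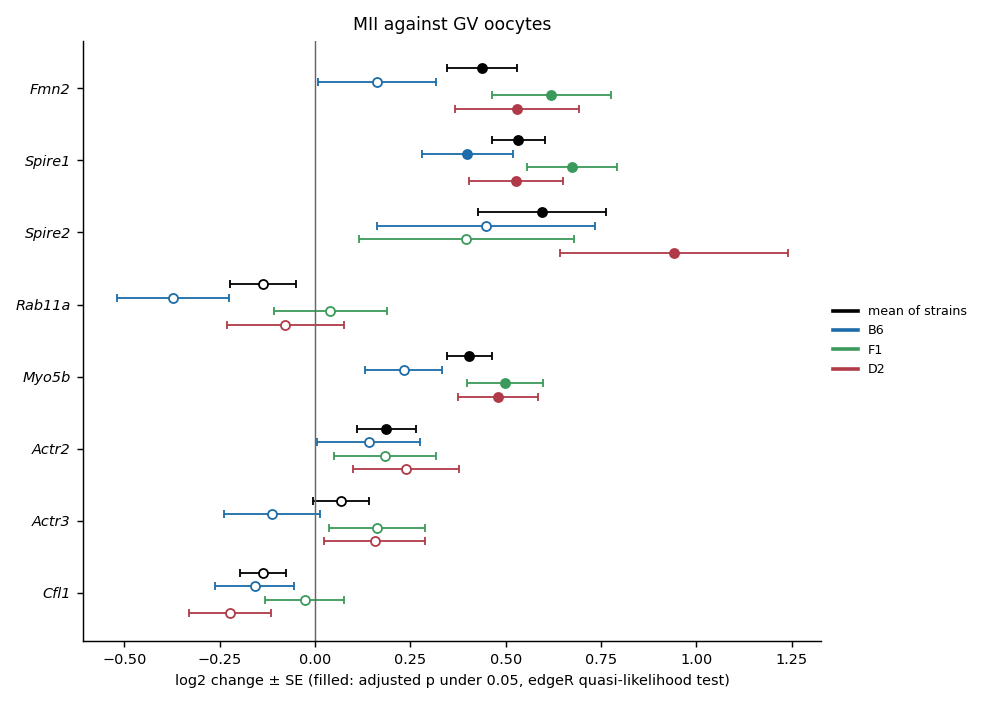
Log2 change of each gene, MII over GV, with its SE, for the mean of the strains in black and for B6, F1 and D2 in colour, with filled points where the adjusted p was under 0.05. Spire1 is filled in all 4 fits, from 0.40 in B6 to 0.67 in F1, while Rab11a, Actr3 and Cfl1 are open in all 4.

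The granulosa and cumulus markers moved with the stage. Of their 24 genes tested, 19 were called lower in MII and 2 higher, with a median log2 change of -5.76. The marker level, as the mean log2 CPM of the list, ran from -0.11 to 4.65 in GV libraries, with a median of 3.42, and from -1.25 to 0.40 in MII libraries. The defining marker Foxl2 was at 0 in all 16 MII libraries and averaged 3.04 CPM in GV, and Inhba averaged 338 CPM in GV and 2.91 in MII. Other genes of the list averaged more in MII, at low levels. Ptgs2 averaged 2.65 CPM in GV and 5.22 in MII, and Tnfaip6 0.0725 and 0.693. Ptx3 averaged 0.0210 and 0.356 CPM, and Has2 1.06 and 1.18. The stroma and blood list fell too, with 10 of 14 genes tested called lower and 1 higher. Across the 4 GV libraries of batch 2 with higher marker levels, Myo5b ran from 496 to 518 CPM. In the 3 GV libraries of low marker level it was 561 to 656 CPM, and in the 7 MII libraries 588 to 769. Spire1 showed the same order, with 353 to 444, 446 to 660 and 510 to 686 CPM. The low group for Fmn2, at 380 to 1150 CPM, covered most of the range of the other 2. By median, with the groups taken in the same order, Actr2 was at 169, 188 and 224 CPM. Other genes did not follow that order. Rab11a was at 57.1, 53.6 and 44.6 CPM, and Spire2 at 13.0, 12.5 and 14.8. Actr3, at 131, 173 and 149 CPM, and Cfl1, at 195, 226 and 181, were highest in the low group.

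With the marker level added to the model as a covariate, none of the 8 genes was called for the stage, and 2263 of all genes tested, or 11.9%, were. The estimates were then 0.10 for Fmn2, 0.25 for Spire1, 0.59 for Spire2, 0.10 for Myo5b and 0.06 for Actr2. Adjusted p ran from 0.222 for Spire1 to 0.793 for Fmn2 among these, and Rab11a, Actr3 and Cfl1 stood at -0.36, -0.17 and -0.25. All GV libraries but 1 lay above the MII range of the marker level, so this covariate and the stage are largely the same split of the libraries. Without the 3 GV libraries of low marker level, the 5 calls stood, at 0.51 for Fmn2, 0.62 for Spire1, 0.62 for Spire2, 0.47 for Myo5b and 0.22 for Actr2. The part of follicle cell RNA in the stage changes was otherwise not tested.

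**Figure D3:**
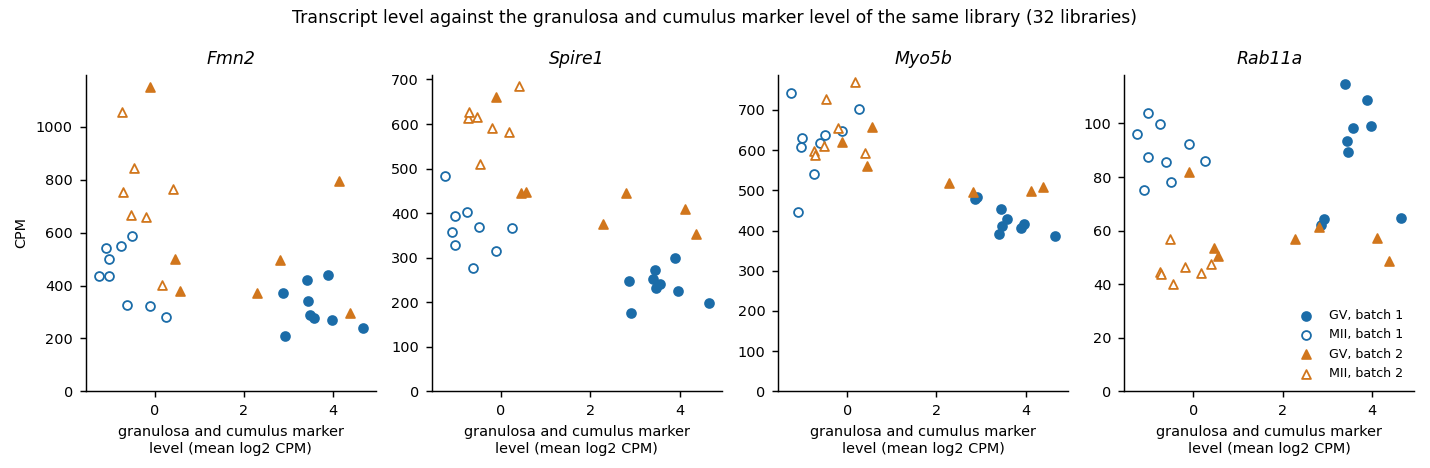
CPM of Fmn2, Spire1, Myo5b and Rab11a against the granulosa and cumulus marker level (mean log2 CPM) of the same library, with filled symbols for GV, open symbols for MII, circles for batch 1 and triangles for batch 2. The 3 filled triangles near the MII marker range lie at 561 to 656 CPM for Myo5b, above the other filled triangles at 496 to 518.

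The second comparison set D2 against B6 oocytes at each stage. Fmn2 was 2.06-fold lower in D2 at GV and 1.60-fold lower at MII, and Actr3 was 1.56-fold and 1.29-fold lower. Spire1 was 1.28-fold lower at GV, and Myo5b was 1.24-fold higher at MII. At GV 3 of the 8 genes were called lower and none higher, where 20.5% of all genes were called, 11.3% lower and 9.16% higher. At MII 2 were called lower and 1 higher, where 26.4% were called, 13% lower and 13.4% higher. The median log2 difference of the 8 genes was -0.32 at GV and -0.07 at MII, against -0.02 at both stages for all genes. D2 reads were aligned to a reference that comes from B6, and the part of this in the strain differences was not tested.

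For Fmn2 at GV, the 3 batch 1 libraries were at 371, 420 and 440 CPM in B6 and at 209, 269 and 279 in D2. The 2 batch 2 libraries were at 796 and 1150 CPM in B6 and at 296 and 380 in D2. Within each batch every D2 library lay below every B6 library, and across batches the highest D2 value, 380, passed the lowest B6 value. The log2 difference was -1.04 ± 0.16, with an adjusted p of 7.55e-06. It was -0.64 in batch 1 alone (adjusted p = 0.00277) and -1.50 in batch 2 alone (0.00223). The B6 library at 1150 CPM was also the B6 one of low marker level, and without it the difference was -0.87. The call also stood with the marker level as a covariate (adjusted p = 4.33e-06).

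At MII, Fmn2 ran from 543 to 587 CPM in B6 and from 280 to 328 in D2 in batch 1, with no overlap. In batch 2 the 3 B6 libraries were at 752, 766 and 1054 CPM and the 2 D2 libraries at 402 and 845. The upper D2 value, from replicate 2, stood within the B6 values. The log2 difference was -0.68 ± 0.16 (adjusted p = 0.00111), and in batch 2 alone the call was lost (-0.52, adjusted p = 0.224), as it was with no batch term (0.0793). Without D2 MII batch 2 replicate 2 the difference was -0.90.

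Actr3, the gene of the Arp3 subunit, was at 115, 119, 121, 123 and 128 CPM in the 5 D2 GV libraries and at 131, 159, 202, 214 and 237 in the 5 B6 GV libraries. The groups did not overlap, and D2 had the tighter spread. The log2 difference was -0.64 ± 0.13 (adjusted p = 0.000407). It was -0.58 in batch 1 alone and -0.59 in batch 2 alone, where the call was lost (adjusted p = 0.170). At MII the D2 libraries ran from 112 to 149 CPM and the 6 B6 libraries from 131 to 207 with a median of 175, so the groups overlapped. That log2 difference was -0.37 ± 0.13 (adjusted p = 0.0286). Leaving out 1 of 6 libraries lost this call: B6 MII batch 1 replicate 2, batch 2 replicate 1 or replicate 3, and D2 MII batch 1 replicate 2 or 3, or batch 2 replicate 2, with adjusted p from 0.0552 to 0.0947. It was also lost in batch 2 alone (-0.39, adjusted p = 0.330), with no filter (0.0639) and with no batch term (0.0712). The Arp2 gene Actr2 was not called, at -0.26 ± 0.14 in GV (adjusted p = 0.215) and -0.16 ± 0.13 in MII (0.414). The shared windows of Actr3 lie in pseudogenes, and the part of reads from them was not tested.

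Spire1 at GV was at 247, 251, 299, 409 and 660 CPM in B6 and at 176, 226, 240, 353 and 447 in D2. The D2 values were lower within batch 1 and overlapped B6 in batch 2. The log2 difference was -0.36 ± 0.12 (adjusted p = 0.0356). This call stood in only 4 of 15 other settings: the 1 CPM filter, limma-voom, a term of 3 batch levels and the granulosa marker level as a covariate. It was lost with median-of-ratios or upper quartile scaling, no filter, DESeq2, each batch alone, no batch term, only the groups compared, the replicate block, and without GV libraries of low marker level in both forms, with adjusted p from 0.0543 to 0.501. It was also lost in 18 of 32 fits that left out 1 library, with adjusted p up to 0.365. At MII it was -0.23 ± 0.12 (adjusted p = 0.161).

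Myo5b at MII was at 617, 647, 701, 727 and 769 CPM in D2, and ran from 447 to 638 with a median of 590 in B6. Of the 5 D2 libraries, 4 lay above all 6 of B6. The log2 difference was 0.31 ± 0.10 (adjusted p = 0.0198), and it was lost without B6 MII batch 1 replicate 1 (0.0597) or D2 MII batch 1 replicate 4 (0.0564). It was also lost in batch 1 alone (0.23, adjusted p = 0.286), in batch 2 alone (0.28, adjusted p = 0.205), with no batch term and with the replicate block (0.27, adjusted p = 0.0874). At GV the difference was 0.06 ± 0.10. Rab11a, Spire2, Actr2 and Cfl1 were called at neither stage. Their intervals bound what could have been missed: for Cfl1 the 95% interval ran from -0.15 to 0.30 at GV and from -0.20 to 0.22 at MII, whereas for Spire2 it ran from -1.08 to 0.15 and from -0.56 to 0.61.

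The third comparison asked where the F1 hybrid lay. F1 shares its libraries across the contrasts with B6, with D2 and with the mid-parent, the mean of the parents' log2 levels, so these are not separate pieces of evidence. At GV, Fmn2 in F1 was 1.70-fold below B6 (log2 difference -0.76 ± 0.15, adjusted p = 0.00153) and 1.21-fold above D2 (0.28 ± 0.16, adjusted p = 0.404). The 6 F1 GV libraries ran from 240 to 501 CPM with a median of 357, and within each batch all 3 lay below every B6 library. The call was lost in batch 1 alone (-0.48, adjusted p = 0.119) and with no batch term. At MII the 5 F1 libraries were at 435, 438, 500, 660 and 668 CPM, and within each batch they again lay below every B6 library. That difference did not pass the test (-0.31 ± 0.16, adjusted p = 0.253). Fmn2 in F1 at MII was 0.37 ± 0.16 above D2 (adjusted p = 0.174), and 0.58 without D2 MII batch 2 replicate 2, where it was called (adjusted p = 0.014).

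Actr3 in F1 ran from 131 to 181 CPM at GV, with a median of 167, above every D2 library, and overlapped the B6 libraries. Its log2 difference from D2 was 0.40 ± 0.13 at GV (adjusted p = 0.0536) and 0.41 ± 0.13 at MII (0.0492), where the F1 libraries were at 143, 171, 182, 197 and 206 CPM. The MII call held in only 8 of 32 fits that left out 1 library and in 8 of 15 other settings. Against B6, Actr3 was at -0.24 ± 0.13 and 0.04 ± 0.13 in F1.

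In counts, F1 against B6 called 1 of the 8 genes at GV (Fmn2, lower) and none at MII, where 5.5% and 7.36% of all genes were called. F1 against D2 called none at GV and 1 at MII (Actr3, higher), where 6.05% and 8.11% were called. F1 against the mid-parent called none at either stage, where 0.879% and 1.16% were called. Where none of the 8 was called in edgeR's quasi-likelihood test, the number with an unadjusted p under 0.05 was 1 for F1 against B6 at MII, 2 for F1 against D2 at GV and 0 for both mid-parent contrasts, and DESeq2 and limma-voom also called none. For Fmn2 the 95% interval of the difference from the mid-parent ran from -0.52 to 0.03 at GV and from -0.25 to 0.32 at MII, and for Actr3 from -0.14 to 0.30 and from -0.01 to 0.45.

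**Figure D4:**
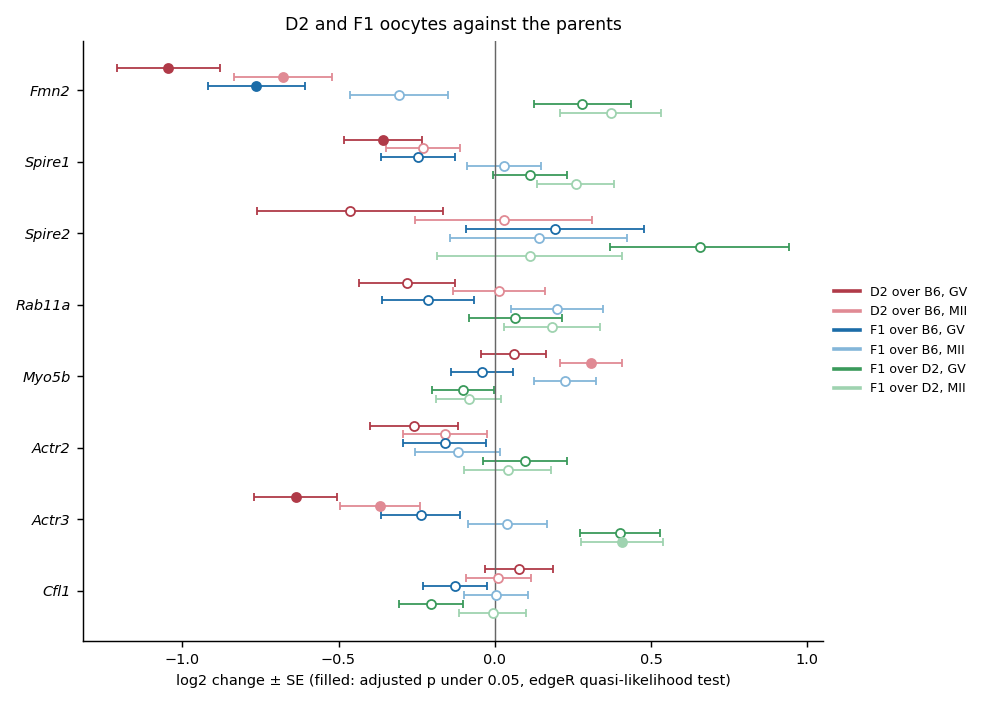
Log2 difference of each gene with its SE for D2 over B6, F1 over B6 and F1 over D2, with darker colours for GV, lighter for MII, and filled points where the adjusted p was under 0.05. Fmn2 and Actr3 are filled below 0 for D2 over B6 at both stages, and the F1 point over B6 is filled for Fmn2 at GV, at -0.76.

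The levels also differed between batches. Batch 2 over batch 1, as a mean over the 6 groups, was 1.94-fold for Spire2, 1.76-fold for Spire1 and 1.65-fold for Fmn2, and 0.59-fold for Rab11a and 0.75-fold for Cfl1. For Spire1 the batch difference was above 0 in each of the 6 groups, from 0.60 to 0.97 on the log2 scale, and for Rab11a it was below 0 in each, from -1.06 to -0.42. Myo5b, Actr2 and Actr3 differed by 1.17-fold, 1.11-fold and 0.925-fold. All groups held both batches, and these differences widen the spread of the group means. Within batch 2 the library titles form 2 sets, and strain is not balanced over them: all 5 B6 libraries are in 1 set and both F1 MII libraries in the other, while D2 at both stages and F1 at GV are in both. Set and strain therefore cannot be fully told apart within batch 2. Fmn2 in D2 MII was at 402 CPM in the set without B6 and at 845 in the set with B6, where the B6 MII libraries were at 752, 766 and 1054. With a batch term of 3 levels in place of 2, the calls for D2 against B6 stood, with Fmn2 at -0.97 (adjusted p = 1.69e-05) at GV and -0.62 (0.00191) at MII and Actr3 at -0.67 (0.000235) and -0.41 (0.0159), and the Actr3 call of F1 against D2 at MII was lost (0.0713).

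A list of 91 other genes of actin networks, their carriers and cortical polarity, all of which were tested, puts the 8 genes in their setting. For MII against GV, 33 of 91 were called higher and 26 lower, which is 64.8% called against 51.9% of all genes, with a median log2 change of 0.05. Of the 16 activators of Arp2/3, 8 rose and 3 fell. Wasf3, a WAVE protein gene, rose by 0.97 ± 0.07 on the log2 scale, from a mean of 71.6 to 141 CPM, Whamm by 0.67 ± 0.08 and the WAVE complex gene Abi1 by 0.51 ± 0.06. Of the 8 other Arp2/3 subunit genes, 3 fell and 1 rose. Arpc3 fell by 0.99 ± 0.13, from a mean of 42.2 to 20.3 CPM, and the log2 changes of Arpc1a and Arpc5l were -0.78 ± 0.19 and -0.71 ± 0.10.

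Of the 13 other formins and nucleators, 5 rose and 3 fell, with Daam1 at 0.53 ± 0.06, Fhod3 at 0.46 ± 0.07 and Diaph1 at 0.30 ± 0.06. Of the 9 vesicle carriers, 3 rose and 2 fell. Myo5a, the paralogue of Myo5b, rose by 0.37 ± 0.06, and Rab11fip1, an adaptor of Rab11, by 0.44 ± 0.07, while Rab11b fell by 0.54 ± 0.13, from a mean of 25.2 to 17.6 CPM. Of 18 genes of actin turnover, 5 rose and 3 fell. Cfl2, the cofilin of muscle, rose by 0.72 ± 0.07, from 130 to 214 CPM. The phosphatase gene Ssh2 rose by 0.47 ± 0.06, and the kinase gene Tesk1 by 0.52 ± 0.13, from a mean of 20.5 to 28.1 CPM. Of 11 genes of actin and its monomer and end binding, 4 rose and 5 fell, with the capping gene Capzb at -0.83 ± 0.08 and the cytoplasmic actin gene Actg1 at -0.58 ± 0.08. Capza1, also a capping gene, went the other way, at 0.34 ± 0.07, from a mean of 71.1 to 89.8 CPM. Of 16 genes of the cortex and polarity, 7 rose and 7 fell, with Eps8 at 0.51 ± 0.07, the cytokinesis gene Ect2 at 0.44 ± 0.07 and the GTPase gene Ran at -1.02 ± 0.11. With the granulosa marker level as a covariate, 10 of the 91 were called higher and 5 lower, 16.5% against 11.9% of all genes in that fit, and Wasf3, Abi1, Whamm, Daam1, Cfl2, Ssh2, Arpc3, Arpc5l, Capzb and Ran were among them.

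Between strains, 26 of the 91 were called at GV (7 higher in D2 and 19 lower), 28.6% against 20.5% of all genes, and 31 at MII (15 higher and 16 lower), 34.1% against 26.4%. Myo10, the filopodial motor, had the lowest adjusted p of the cortex list and the widest strain difference of the genes named. It averaged 919 ± 288 CPM in B6 MII oocytes (SD, n = 6), 275 ± 78.6 in F1 (n = 5) and 118 ± 64.5 in D2 (n = 5), a log2 difference of -2.98 ± 0.20 between D2 and B6. Fmn1, the paralogue of Fmn2, was also lower in D2 at MII, at 10.8 ± 4.17 against 46.1 ± 19.1 CPM (-2.04 ± 0.25), and Myo5a was lower at GV, at 65.1 ± 10.8 against 133 ± 32.0 CPM (-1.01 ± 0.10). Cobl, another nucleator gene, was lower at GV, at -1.04 ± 0.19. Higher in D2 at MII were the actin-depolymerizing gene Dstn, by 1.05 ± 0.12, the subunit genes Arpc5, by 1.15 ± 0.28, and Arpc4, by 0.94 ± 0.21, and the Arp2/3 activators Jmy, by 1.12 ± 0.19, and Abi1, by 0.78 ± 0.09. Arpc4 and Arpc5 thus differed in the direction opposite to Actr3. With the marker level as a covariate, 8 were called higher and 20 lower at GV, 30.8% against 21% of all genes in that fit, and 16 higher and 19 lower at MII, 38.5% against 27.8%.

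**Figure D5:**
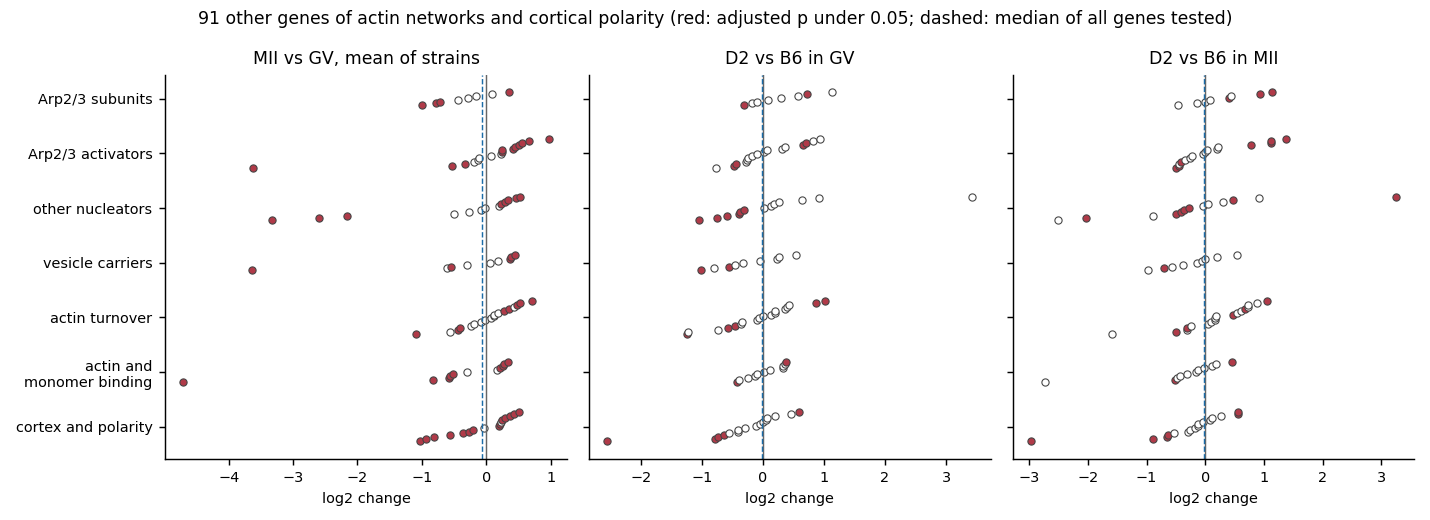
Log2 change of each of the 91 other genes, by list, for MII over GV and for D2 over B6 at GV and at MII, with red points where the adjusted p was under 0.05 and a dashed line at the median of all 19003 genes tested. Called genes lie on both sides of 0 in every list for MII over GV, and Myo10 is the point near -3 for D2 over B6 at MII.

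Among 8802 genes, the ones closest in pattern to each of the 8 were found by the root mean square difference of log2 CPM over the 32 libraries after batch means were removed. For Spire1 these were Wee2, an oocyte kinase gene, at 0.10, with Stk3 and Trip12 at 0.11, against a median of 0.48 over all genes. Myo5b was closest to Ecpas and Rhpn2 at 0.11 and to Naa35 at 0.12, and Fmn2 to Pstpip2 and Fam217a at 0.18 and to Brca2 at 0.20, against 0.61 for the median gene. Cfl1 was closest to Tsc22d1 at 0.16, only slightly under its own deviation of 0.17 from a flat line. The next, Cdc42 at 0.19, was farther from Cfl1 than a flat line was. Actr3 was closest to Mis12 and Eif5 at 0.16, Rab11a to Nbeal1 at 0.18 and Actr2 to Pramel26 and Copb1 at 0.18. Spire2 had no close neighbour, with Sfswap the nearest at 0.39. Within the 8 genes, Spire1 and Myo5b were each other's nearest, at 0.26, and so were Rab11a and Actr3, at 0.26. These distances were about those of Myo5b, 0.26, and Rab11a, 0.25, from a flat line. The libraries share amplification, batch and marker level, so the measure describes these libraries only.

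The 3′ ends were read from the GENCODE M21 transcripts on GRCm38, because maturing oocytes lengthen the poly(A) tails of stored mRNAs that carry a cytoplasmic polyadenylation element (CPE) near the poly(A) signal. Within the last 150 nt, a CPE of the form TTTTAT or TTTTAAT on the transcript strand was present in 4 of the 8, namely Spire1, Rab11a, Myo5b and Actr2, and in 21.5% of 21813 coding genes. A poly(A) signal AATAAA or ATTAAA was found in 7 of the 8, all but Spire2, and in 76.6% of genes. The CPE nearest the signal started 13 nt upstream of it in Actr2, 27 in Spire1, 35 in Rab11a and 109 in Myo5b. That of Myo5b was thus the farthest from its signal. Of the 4 with a CPE, Spire1, Myo5b and Actr2 were called higher in MII and Rab11a was not, and of the 4 without one, Fmn2 and Spire2 were called higher. The 30 bases around the signal are printed for Actr2, whose CPE starts 13 nt upstream of the signal, beside Fmn2 and Actr3, which have no CPE. Capitals mark the CPE and every match to a signal: Fmn2 holds AATAAA at 2 places, and in Actr3 an AATAAA and an ATTAAA overlap.
Actr2: cttctTTTTAATtaagaaAATAAAtaagat
Fmn2: ttatatgaaAATAAAatgaatAATAAAata
Actr3: aaaaagtgatgacAATAAATTAAAattgaa
The match is of letters in a B6-derived transcript, and poly(A) tail length was not measured in these libraries.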

How the data were processed

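The data were read counts per gene of 32 RNA-seq libraries, in the authors' deposited count table, which was not normalised. Per the submitters' processing notes, HISAT2, SAMtools, featureCounts (Subread 1.5.1) and DESeq2 1.16.1 were used with the build GRCm38.p4, on single reads of 50 nt. Per the labels' protocols, libraries were made from SPIA cDNA with 12 PCR cycles. Of 37444 entries, 3 named no gene and were left out, with at most 0.019% of a library. Names, coordinates and promoters came from RefSeq on GRCm38.p6, and names matched 36371 entries.

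Counts were scaled by the trimmed mean of M values, filterByExpr removed low genes by the 6 groups, and 1 model with group and batch as terms was fitted to all libraries by edgeR's quasi-likelihood method with the robust option. In each of 13 comparisons the two-sided p was adjusted by Benjamini-Hochberg over all 19003 genes and called under 0.05. The SE is the size of a log2 change over the square root of its F. The fit was also run on simulated data for the mean stage change alone, and its recovery is not reported here. Totals of 18.7 to 39.7 M reads, the number of replicates and SPIA amplification without molecular identifiers set the precision. Each library is a pool of 1 mother, and the labels do not say whether a mother gave more than 1 library. The p-values therefore measure the spread between libraries of a group after the batch term, which also holds technical differences.

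The 8 genes and all lists were chosen with earlier results of these data known. Other genes were named by rule: per list, up to 3 called genes of lowest adjusted p for the stage and up to 2 for strain, with a mean of 5 CPM or more and equal sign in both batches. Alternatives were other scalings, filters and tools (DESeq2, limma-voom), other uses of batch, a replicate block, the granulosa marker level as a covariate, and leaving out each library or GV libraries of low marker level. The setting without 3 GV libraries was added after seeing the data. Tests used edgeR 4.0.16, DESeq2 1.42.0 and limma 3.58.1 under R 4.3.3, and tables and figures used Python 3.11.15 with pandas 2.3.3, numpy 2.4.6 and matplotlib 3.10.9.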

Additional observations from a re-analysis of the deposited data

Results flagged for a closer look

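Fmn2 in D2 MII oocytes was flagged because 1 of its 5 libraries stood far from the others: batch 2 replicate 2 was at 844.5 CPM, while the other 4 ran from 280 to 402 CPM. It was the only flag among 48 gene and group pairs tested. The rule flags about 1 in 20 groups drawn from a normal distribution. Each group here mixes 2 batches and the 8 genes share libraries, so that rate need not hold and was not tested. The log2 difference of Fmn2 between D2 and B6 at MII was -0.68 with this library and -0.90 without it, and it passed the threshold both ways. Fmn2 in F1 against D2 at MII was at 0.37 with it (adjusted p = 0.174) and at 0.58 without it (adjusted p = 0.014), where the difference was called.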

How the results depend on the processing

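Counts of the 8 genes called were recomputed under 15 other settings (14 for the mean of strains, where all groups are compared) and with each of 32 libraries left out. For MII against GV as a mean of strains, 5 became 2 in batch 2 alone (Spire1 higher, Rab11a lower), 0 with the granulosa marker level as a covariate, 4 with upper quartile scaling, batch 1 alone or no batch term, and 6 with the 1 CPM filter (4 higher, 2 lower). It stayed at 5, but as 4 higher and 1 lower, with median-of-ratios scaling, DESeq2 and the replicate block. In B6, 1 became 2 with median-of-ratios scaling, the filter of 1 CPM in at least 16 libraries, DESeq2, batch 1 alone, the replicate block, and without GV libraries of low marker level in both forms, and 0 with no batch term or with the covariate. In D2, 4 became 2 in batch 1 alone, 0 in batch 2 alone or with the covariate, 1 with no batch term, and 5 (4 higher, 1 lower) with the 1 CPM filter or DESeq2, and was 3 higher and 1 lower with only the groups compared. In F1, 3 became 0 in batch 2 alone or with the covariate, and 1 with no batch term. For D2 against B6, 3 became 1 at GV in batch 2 alone, and 2 in the 10 other settings that lost the Spire1 call (both other scalings, no filter, DESeq2, batch 1 alone, no batch term, only the groups compared, the replicate block, and without GV libraries of low marker level in both forms). At MII 3 became 0 in batch 2 alone or with no batch term, 2 with no filter, batch 1 alone or the replicate block, and 4 with only the groups compared. For F1 against B6, 1 became 0 at GV in batch 1 alone or with no batch term, and 0 became 1 at MII with only the groups compared. For F1 against D2, 0 became 1 at GV with the 1 CPM filter or without the GV library within the MII marker range. At MII 1 became 0 with 7 settings: the scalings by median of ratios and upper quartile, no filter, no batch term, batch 2 alone, a term of 3 batch levels and the covariate, and it became 2 in batch 1 alone. Batches alone have fewer samples, and the cause of the other changes was not tested.

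With each library left out, the counts ran from 4 to 6 for the mean stage change, 0 to 2 in B6, 3 to 4 in D2 and 3 to 3 in F1. They ran from 2 to 3 for D2 against B6 at each stage, 1 to 1 and 0 to 0 for F1 against B6 at GV and MII, and 0 to 1 for F1 against D2 at each stage. They stayed at 0 to 0 for the mid-parent contrasts and the stage change between strains. No called direction reversed under any setting run. With the filter of 1 CPM all 8 mean stage estimates were lower, and Rab11a (-0.20, adjusted p = 0.04997) and Cfl1 (-0.20, adjusted p = 0.00552) were then called lower. The replicate block gave 4 higher and 1 lower for the mean stage change, 2 lower for D2 against B6 at GV and 2 lower at MII. The labels do not say that numbers mark shared animals. Of 59 pairs of libraries with the same batch and number, 5 had deviations from their group-by-batch means that correlated above 0.1. So did 12 of 157 pairs of the same batch with other numbers. Of the 11 pairs of the same batch, number and strain, 0 did. Where a group has 2 libraries in a batch, their deviations mirror each other, so these sets of pairs are not independent. The counts therefore cannot decide whether numbers mark shared animals. Spire2, with as few as 112 reads in a library, is where depth limits precision most.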

Other observations

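The balance of the 2 kinds of nucleator differed between B6 and the other females at GV. Fmn2 over Spire1, per kb within a library, was 1.48 ± 0.17 in B6 GV oocytes (SD, n = 5, from 1.30 to 1.73), 1.03 ± 0.09 in F1 (n = 6, from 0.876 to 1.12) and 0.927 ± 0.16 in D2 (n = 5, from 0.745 to 1.05). The 5 B6 GV libraries thus lay above all F1 and D2 GV libraries, in both batches, although both genes were higher in batch 2. At MII the ratio was 1.26 ± 0.21 in B6 (n = 6), 1.01 ± 0.15 in F1 (n = 5) and 0.941 ± 0.34 in D2 (n = 5), and the groups overlapped. The ratio was chosen after its values were seen and was not tested.

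Myo5b over Rab11a per kb ran from 1.17 to 6.19 over the 32 libraries, with a median of 2.63, and was 2.13 ± 0.84 in B6 GV and 3.36 ± 1.28 in B6 MII oocytes. It was 2.71 ± 1.32 and 3.96 ± 1.94 in D2, and 2.46 ± 0.82 and 3.12 ± 1.14 in F1. The medians at GV and MII were 2.59 and 3.53 in B6, 2.58 and 2.79 in D2, and 2.41 and 2.65 in F1. Both genes differed between batches in opposite directions, which widens this ratio.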
